A study of Mus musculus with 4 samples.

Results

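The receptors that share the common γ chain, together with IL-15 and the kinase JAK3, were examined in CD8αβ+ intraepithelial lymphocytes (IELs) and CD8αβ+ splenocytes (SPLs). The members were 10 named genes out of 27376 gene names on the array: Il2rg, Il2rb, Il2ra, Il15ra, Il7r, Il4ra, Il21r, Il9r, Il15 and Jak3. They were picked by name, with earlier results of these data known. Every non-control probe that the array annotation gives to one of them was taken, which made 19 probes. CD8αβ+ T cells were sorted by flow cytometry from the epithelium of the small intestine or from the spleen of male wild-type C57BL/6 mice aged 8 to 12 weeks, and the labels name no treatment. The RNA of each sample was hybridised to 1 Agilent 1-colour whole mouse genome array, with 2 IEL and 2 SPL samples in all. Each sample pooled cells of several mice, so the spread between 2 samples of a group is a spread between pools, and p-values measure only that spread. The design asks which transcripts set the IEL compartment apart from its splenic counterpart.

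The common γ chain, encoded by Il2rg, is the shared signalling subunit of the receptors for IL-2, IL-4, IL-7, IL-9, IL-15 and IL-21. JAK3 docks to it, JAK1 docks to the partner chain, and the pair phosphorylates STAT proteins, above all STAT5 for IL-2, IL-7 and IL-15. IL-15 is held on the surface of a presenting cell by IL-15Rα and is received by the β and γ chains of a neighbouring lymphocyte. Epithelial IL-15 has been tied to the accumulation of CD8αα+ IELs. For CD8αβ+ IELs, the cells sorted here, the study proposes only that IL-15 may play a part. Naive splenic CD8 T cells are known for their dependence on IL-7.

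The probes that carry the comparison are 60 bases long, and those read as coding are printed here, 5′ to 3′ on the transcript strand, because each reports 1 stretch of the message rather than the whole gene. Capitals mark the 17 bases shared by both Il15ra probes, which therefore read overlapping parts of the same message and are not independent measurements.
Il2rg A_51_P456952: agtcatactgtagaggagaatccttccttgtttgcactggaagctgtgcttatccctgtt
Il15ra A_51_P202292: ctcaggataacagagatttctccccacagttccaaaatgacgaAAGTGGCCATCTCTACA
Il15ra A_52_P55902: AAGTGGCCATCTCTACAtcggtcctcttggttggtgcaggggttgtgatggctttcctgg
Il7r A_52_P555957: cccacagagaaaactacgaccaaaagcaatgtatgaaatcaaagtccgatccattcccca
Il21r A_51_P362877: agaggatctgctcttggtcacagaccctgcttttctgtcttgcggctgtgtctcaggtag
Il15 A_52_P15461: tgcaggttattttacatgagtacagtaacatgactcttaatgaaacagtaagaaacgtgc
Jak3 A_52_P512847: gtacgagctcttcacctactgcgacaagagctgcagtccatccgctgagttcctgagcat

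On the array's mm9 coordinates, the Il2rg probe lies at chrX:98461022-98461535 on the minus strand, and the Il15ra probes lie at chr2:11645225-11652211 and chr2:11645753-11652254 on the plus strand. Together with Jak3 A_52_P512847 at chr8:74210826-74211151, these are the 4 member probes that cross an exon junction. The Il21r probe lies at chr7:132776151-132776210 and the Il4ra probe at chr7:132721137-132721196, and no protein-coding gene stands between Il4ra and Il21r in RefSeq, their probes being 55.0 kb apart. Il2ra and Il15ra are also direct neighbours, on chromosome 2, with their closest probes 30.7 kb apart. The Il15 probes lie at chr8:84867236-84867295 and chr8:84858403-84858462 on the minus strand.

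Levels are given as log2 of the deposited intensity minus log2 of the same array's 75th percentile, so that 0 is the brightness of a probe at that percentile. They compare arrays for 1 probe and do not rank genes against each other. The percentile itself was 312 and 435 intensity units on the IEL arrays of replicates 1 and 2, and 479 and 605 units on the SPL arrays. Scanner flags marked 98 to 179 spots per array, no spot was saturated, and 63.6% to 69.6% of probes were well above background. IEL replicate 2 stood apart from its label: across 27911 probes it correlated with r = 0.946 with IEL replicate 1 but with r = 0.992 with SPL replicate 1, which shares its slide, and with r = 0.973 with SPL replicate 2, which does not. Whether this sample held splenic cells or was mislabelled was not tested, and every IEL mean below includes it unless stated. IEL replicate 1 shared the other slide with SPL replicate 2, so each slide gives 1 IEL minus SPL difference, called here slide 1 (IEL replicate 1 minus SPL replicate 2) and slide 2 (IEL replicate 2 minus SPL replicate 1). The differences of the members are therefore given within each slide too, with no test there.

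Of the 19 member probes, 15 probes of 9 genes stood well above background in both samples of either group and entered the limma fit over 27936 probes. The 4 others were the Il9r probe and 3 of the 4 Il2ra probes. None of the 15 passed a Benjamini-Hochberg adjusted p of 0.05, against 0% of all probes in either direction, and their adjusted p ran from 0.634 to 0.851. At an unadjusted p below 0.05, limma called 3 of the 15, all higher in IELs, where 4.64% of all probes were higher and 1.10% lower. The methods' t-test called no probe after adjustment among all genes, and 470 higher and 349 lower at its unadjusted threshold. With 2 samples against 2, an exact permutation test of a single probe cannot give a two-sided p below 0.33.

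Both IEL arrays lay above both SPL arrays for 9 of the 15 probes, against 24.4% of all probes, and below them for 4, against 24.6%. The 4 include Il15 A_52_P15461, which entered the fit through the SPL arrays alone and was well above background on neither IEL array. Its place in this count, and in the counts by slide below, rests on background readings in IELs. Taking the brightest tested probe of each gene, the 6 genes Il21r, Il2ra, Il15ra, Il4ra, Il2rb and Jak3 had both IEL arrays above, and Il2rg, Il7r and Il15 had both below. The Il2ra and Il15 probes taken here matched no RefSeq transcript, and the Jak3 probe is also assigned to Insl3. The Jak3 probe A_52_P512847, matched to Jak3 alone, also had both IEL arrays above. The median difference of the 9 genes was 0.67 on the log2 scale, and that of all probes was -0.0007. All 15 probes had the same direction on both slides, as did 71.7% of all probes, and 14 differed more on slide 1, as did 80.9% of all probes. The median size of the difference over the 15 probes was 1.28 on slide 1 and 0.25 on slide 2, beside 0.51 and 0.17 over all probes. IEL replicate 2 was nearer to the SPL mean than to IEL replicate 1 for 11 of the 15 probes, and for 72.8% of all probes.

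**Figure D1:**
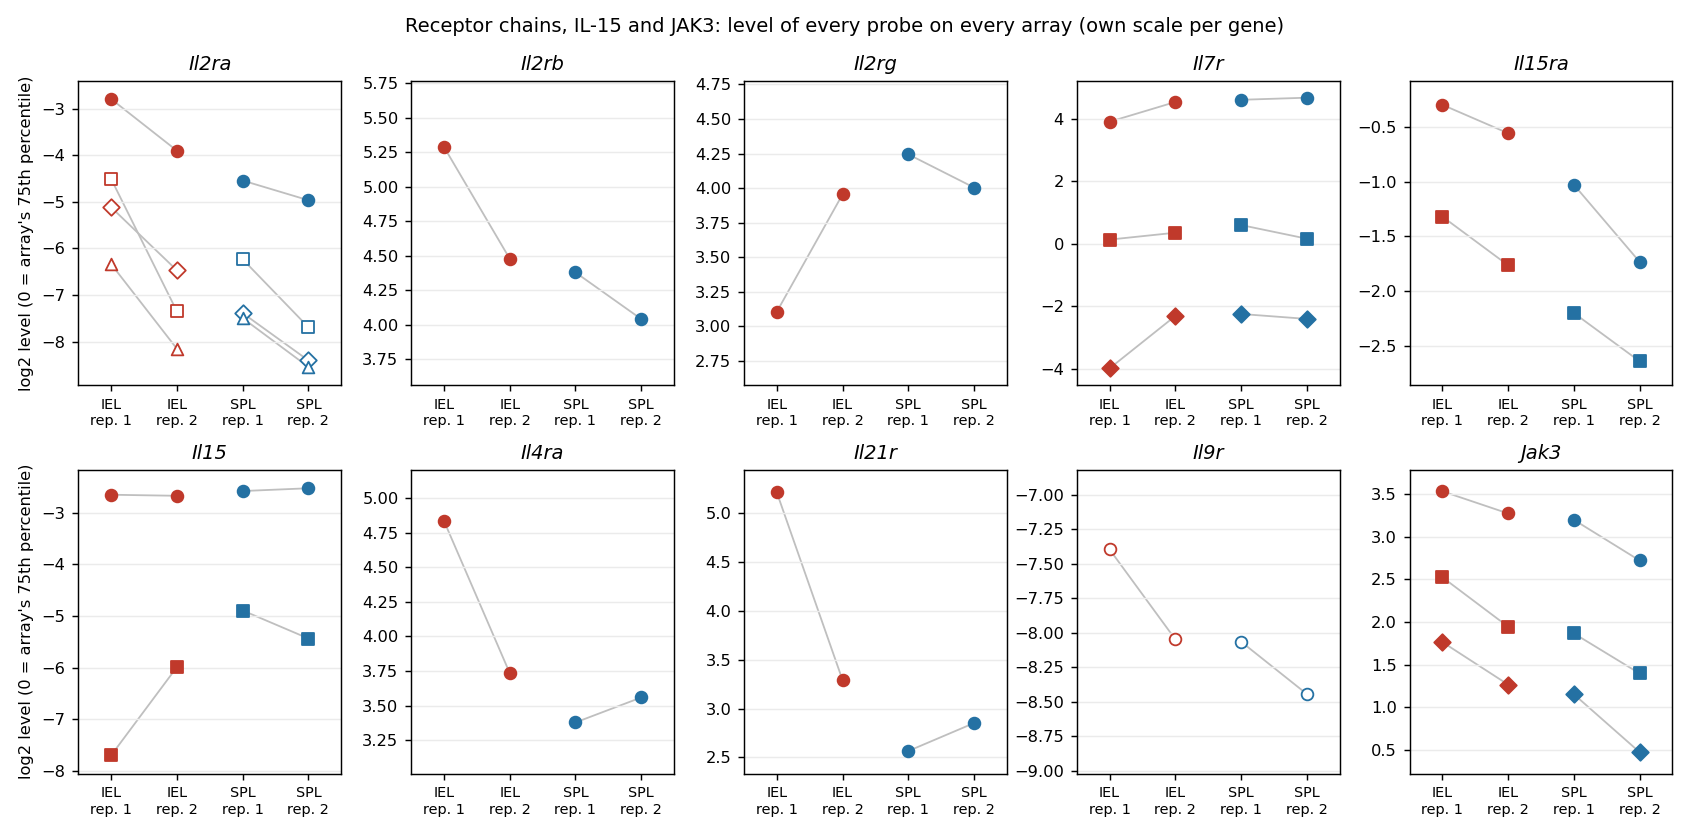
Level of each member probe on each array, in log2 relative to the array's 75th percentile, with 1 panel and 1 vertical scale per gene. Each symbol shape is 1 probe, red is IEL, blue is SPL, grey lines join the arrays of a group, and open symbols are probes that were not tested. For Il4ra, for instance, IEL replicate 1 sits at 4.84, apart from IEL replicate 2 at 3.73 and the SPL arrays at 3.38 and 3.56.

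The shared chains had differences of opposite sign, neither of which passed the test. Il2rg, the γ chain itself, read 3.10 and 3.95 on the IEL arrays and 4.24 and 4.004 on the SPL arrays. Both IEL values were the lower ones, although IEL replicate 2 lay very close to SPL replicate 2. The difference was -0.59 (SE 0.373, n = 2 per group, limma adjusted p = 0.634), which is 1.51-fold lower, with a 95% interval of -1.60 to 0.41. It was -0.90 on slide 1 and -0.29 on slide 2.

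Il2rb, the β chain that the IL-2 and IL-15 receptors have in common, read 5.29 and 4.48 in IELs and 4.38 and 4.04 in SPLs. The IEL arrays were above the SPL arrays, with IEL replicate 2 close to SPL replicate 1. The difference was 0.67 (SE 0.371, limma adjusted p = 0.634), or 1.59-fold, with an interval of -0.33 to 1.67, and it was 1.25 on slide 1 against 0.10 on slide 2. Without scaling between arrays, an alternative added after the values were seen, the Il2rb difference was 0.12, while the median of all probes was then -0.55. The Il2rb intensity was 12185 units on the array of IEL replicate 1 and 9696, 9984 and 9965 units on the others, in the order IEL replicate 2, SPL replicate 1 and SPL replicate 2, so before scaling only the first array stood out.

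Among the private chains, Il21r gave the widest difference. This chain, which binds IL-21, read 5.21 and 3.29 in IELs and 2.56 and 2.85 in SPLs. IEL replicate 1 stood well above the rest and IEL replicate 2 only slightly above SPL replicate 2. The group means were 4.25 ± 1.36 and 2.71 ± 0.202 (SD, n = 2 each), a difference of 1.54 (SE 0.695, limma adjusted p = 0.634), or 2.92-fold, with an interval of -0.32 to 3.41. The slides gave 2.36 and 0.73, so the direction was shared while the size was not.

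Il2ra encodes CD25, the α chain that raises the affinity of the IL-2 receptor and marks activated T cells. Its tested probe, A_51_P118945, which matched no RefSeq transcript, read -2.80 and -3.90 in IELs against -4.54 and -4.97 in SPLs. The 2 groups were apart, but at intensities of 44.9, 29.0, 20.5 and 19.3 units in the same order, near the dim end of the array. The difference was 1.40 (SE 0.459, limma unadjusted p = 0.0337, adjusted p = 0.634), or 2.65-fold, with an interval of 0.17 to 2.64. It was 2.17 on slide 1, 0.64 on slide 2 and 1.30 over all arrays in the deposited log2 values. Under normexp background correction it was -0.75, where the median of all probes was -0.38, and under normexp without spots far below the local background it was 0.71, where that median was 0.15.

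The 3 other Il2ra probes gave no fold. A_52_P330424 was well above background on 1 IEL array and no SPL array, at -5.12 and -6.47 in IELs and -7.39 and -8.40 in SPLs. A_52_P277016 was likewise above background on 1 IEL array alone, and its values of -4.51 and -7.35 in IELs and -6.23 and -7.69 in SPLs overlapped. Both probes were thus detected in IEL replicate 1 only. A_52_P243438 was well above background on no array. The Il2ra probes that matched a RefSeq transcript of the gene were A_52_P277016 and A_52_P243438, so the fold above rests on a probe without such a match.

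Il15ra, the α chain that presents IL-15, was read by both overlapping probes printed above. A_52_P55902 gave -0.30 and -0.56 in IELs and -1.03 and -1.73 in SPLs, and A_51_P202292 gave -1.32 and -1.77 against -2.20 and -2.64. The order of the 4 arrays was the same for both probes, with the IEL arrays above. The differences were 0.95 (SE 0.338, interval 0.04 to 1.86) and 0.88 (SE 0.308, interval 0.05 to 1.71), or 1.94-fold and 1.84-fold, with limma unadjusted p of 0.0434 and 0.0416 and adjusted p = 0.634 for both. Slide 1 gave 1.44 and 1.32, and slide 2 gave 0.47 and 0.44. Under normexp they were -0.02 and -0.23, both above the median of -0.38 over all probes, and under the other normexp correction they were 0.65 and 0.69.

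Il4ra, which binds IL-4 and also serves the IL-13 receptor, read 4.84 and 3.73 in IELs and 3.38 and 3.56 in SPLs. Both IEL arrays were above, IEL replicate 2 by little. The difference was 0.82 (SE 0.439, limma adjusted p = 0.634), or 1.76-fold, with an interval of -0.36 to 2.00, and it was 1.28 on slide 1 and 0.36 on slide 2.

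Il7r encodes the IL-7 receptor α chain (CD127), which naive and memory T cells carry and effector cells lose. Its brightest probe, A_51_P196695 at chr15:9435976-9436035, read 3.91 and 4.54 in IELs and 4.61 and 4.68 in SPLs, so that IEL replicate 1 was low and the other 3 arrays were close together. The difference was -0.42 (SE 0.310, limma adjusted p = 0.643), or 1.34-fold lower, with an interval of -1.25 to 0.41, and -0.77 on slide 1 against -0.07 on slide 2. The coding probe A_52_P555957 read 0.13, 0.35, 0.60 and 0.16 on IEL replicates 1 and 2 and SPL replicates 1 and 2, and its groups overlapped. Its difference was -0.14, with an interval of -0.89 to 0.61, and turned to 0.01 under normexp, and the slides gave -0.03 and -0.25.

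A_52_P32750, drawn from a separate cDNA of the Il7r locus, read -3.996 and -2.32 in IELs and -2.25 and -2.41 in SPLs. IEL replicate 1 alone was low, and the groups overlapped, with a difference of -0.82, an interval of -2.47 to 0.82, and slide values of -1.58 and -0.06. The 3 Il7r probes thus had the same sign but differed in size, and the slide 1 difference ran from -0.03 to -1.58 among them. Il9r, the IL-9 receptor α chain, was well above background on no array, at 1.64 to 1.85 units, and no difference is given for it.

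The ligand Il15 was read by a pair of probes that parted ways. A_52_P383066, designed on an mRNA of a shorter Il15 isoform, read -2.65 and -2.67 in IELs and -2.58 and -2.52 in SPLs. These were the closest 4 values of any tested member, and the difference of -0.11 (SE 0.224, limma adjusted p = 0.851) had an interval of -0.71 to 0.49. The slides gave -0.13 and -0.09.

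The coding Il15 probe A_52_P15461 read -7.69 and -5.99 in IELs and -4.89 and -5.43 in SPLs, from intensities of 1.51, 6.86, 16.2 and 14.0 units. It was not well above background on either IEL array, so the size of the difference is not known. The SPL mean lay 1.53-fold above a floor. That floor was the lowest level that counted as well above background on each IEL array, or the probe's own where that was higher. A higher floor would give a smaller fold, so 1.53 is no guaranteed minimum. The fitted difference of -1.68 (limma adjusted p = 0.634, interval -3.41 to 0.06) is no bound, and it turned to 0.21 when normexp left out spots far below the local background. It was -2.26 on slide 1 and -1.09 on slide 2, with the IEL array not well above background on either.

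JAK3, the kinase of the γ chain, was read by 3 probes that kept 1 order. A_51_P288406 read 3.53 and 3.27 in IELs and 3.20 and 2.72 in SPLs, A_51_P355360 read 2.53 and 1.94 against 1.87 and 1.40, and the junction probe A_52_P512847 read 1.76 and 1.26 against 1.15 and 0.47. In all 3, IEL replicate 1 was highest and SPL replicate 2 lowest, with IEL replicate 2 next to SPL replicate 1. The differences were 0.44 (interval -0.33 to 1.22), 0.60 (-0.30 to 1.51) and 0.70 (-0.27 to 1.68), with limma adjusted p = 0.634 for each. Slide 1 gave 0.81, 1.13 and 1.29, and slide 2 gave 0.07, 0.08 and 0.11. Without scaling, the brightest probe had -0.10 and the junction probe 0.16, again beside a median of -0.55 over all probes. The 2 Jak3 probes A_51_P288406 and A_51_P355360 are also assigned to the neighbouring gene Insl3 in the RefSeq match, and the junction probe is not.

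**Figure D2:**
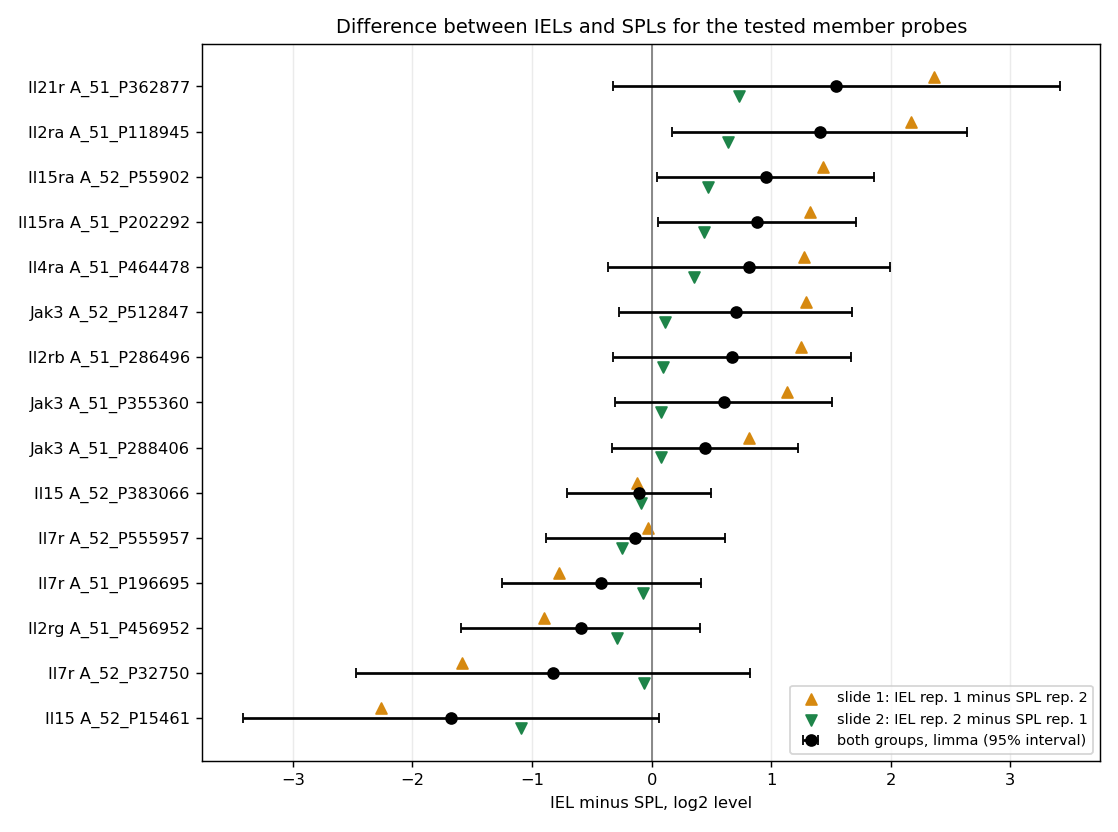
Difference between IELs and SPLs for the 15 tested member probes, as log2 level in IELs minus log2 level in SPLs. Black points are the limma estimates with 95% intervals, and triangles are the differences within slide 1 (orange) and slide 2 (green), as for Il21r at 1.54, 2.36 and 0.73. Only the intervals of Il2ra and both Il15ra probes leave out 0, before adjustment.

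Leaving out IEL replicate 2, whose array was closest to SPL replicate 1, changed which members passed. The lone IEL array is then assumed to vary as the SPL arrays do. In that fit 5454 of 27931 probes passed the adjusted threshold, 8.55% of all probes higher and 11.0% lower in IELs. Among the member probes, 3 rose: Il21r by 2.51 (adjusted p = 0.00902), Il2ra A_51_P118945 by 1.96 (adjusted p = 0.0175) and Il4ra by 1.37 (adjusted p = 0.0264), all by limma. In the lower direction, Il7r A_52_P32750, at -1.66, and Il15 A_52_P15461 passed, each the dimmest tested probe of its gene. No size is given for the Il15 probe, because its lone IEL array was not above background and it entered the fit through the SPL arrays alone. The brighter probes of both genes did not pass. They differed by -0.74 (Il7r A_51_P196695), -0.25 (Il7r A_52_P555957) and -0.099 (Il15 A_52_P383066). Il2rb at 1.08 (limma adjusted p = 0.0572) and Il2rg at -1.02 (limma adjusted p = 0.056) missed the threshold, as did both Il15ra probes and every Jak3 probe. Leaving out any of the 3 other arrays gave no called member, and with IEL replicate 1 left out the Il21r difference was 0.58.

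**Figure D3:**
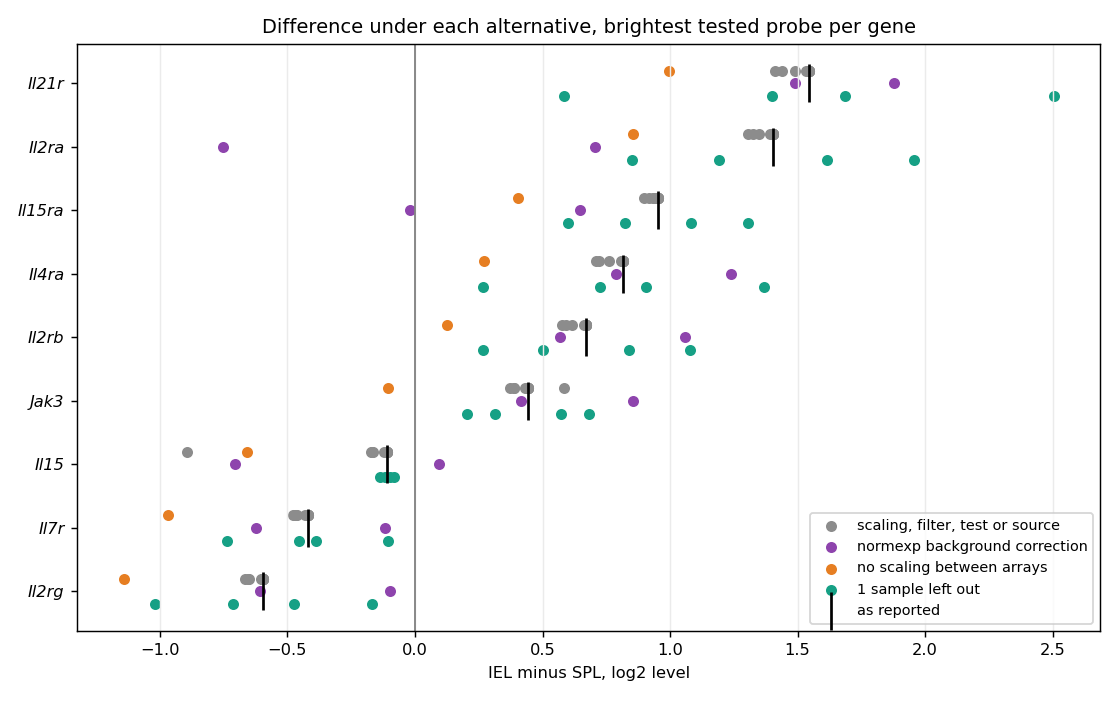
Difference in log2 level, IELs minus SPLs, for the brightest tested probe of each of the 9 genes, as reported (black line) and under each alternative: other scalings, filters, tests or sources (grey), 2 normexp background corrections (purple), no scaling between arrays (orange) and 1 sample left out (green). Il21r, Il4ra and Il2rb stay above 0 throughout, and Il2rg and Il7r stay below 0 throughout. Il2ra reaches -0.75 under 1 normexp correction, which moves the median of all probes to -0.38.

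The sorted cells were checked against marker genes, whose summed level is the sum of linear levels of a list's brightest probes, with 1 standing for the array's 75th percentile. The CD8 T cell list (Cd8a, Cd8b1, the CD3 chains and others) summed to 743 and 819 in IELs and 842 and 830 in SPLs, with all 9 of its genes well above background on every array. The list of intraepithelial or effector T cell genes summed to 913 and 331 in IELs against 165 and 66.9 in SPLs, and that of naive or recirculating T cells to 51.9 and 203 against 222 and 237. Not every gene followed its list: the groups overlapped for Cd69 (-0.10) and Prf1 (0.20) of the former and Klf2 (0.08) of the latter.

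Markers of other cells differed between the arrays as well. All 10 intestinal epithelial markers had both IEL arrays above both SPL arrays, and their sum was 26.8 and 7.34 in IELs against 4.08 and 2.28 in SPLs, with a median difference of 2.96. Paneth cell markers summed to 218 in IEL replicate 1 and to 5.26 to 7.47 on the 3 other arrays, where Lyz1 made up most of the sum. Defa1 alone read 7.49 and 1.66 in IELs and 0.19 and -5.04 in SPLs, and the effector gene Gzmb 8.56 and 6.79 against 5.51 and 0.10. SPL replicate 1, which enters every slide 2 difference, thus stood above SPL replicate 2 for both. So it did for Gzma (5.66 against 1.32) and Krt8 (-1.99 against -4.64). Of the epithelial, Paneth and effector lists, Apoa4, Lyz1, Ang4 and Cd69 were higher in SPL replicate 2. Whether SPL replicate 1 held cells or RNA of the other compartment was not tested. Erythroid genes summed to 1.06 in IEL replicate 1 and to 74.3 to 115 on the others, and neutrophil genes to 0.0733 against 34.6 to 48.1. B cell genes summed to 4.25 in IEL replicate 1 and 23.4 to 30.1 elsewhere, macrophage and dendritic cell genes to 4.19 to 9.52 over all arrays, and NK cell genes to 0.548 to 1.14. The last 2 sums hide members of opposite sign. Itgax differed by 1.65, while C1qa was -5.54 in IEL replicate 1 and -0.78 to 0.66 elsewhere, and the median of that list was -1.35, with 5 of 7 genes lower. Of the NK genes, Klrb1c differed by 0.30, Ncr1 by -1.72 and Klra8 by -2.01, so 2 of 3 were lower. IEL replicate 2 was thus near the SPL arrays for the erythroid, neutrophil and B cell lists, although all 4 erythroid and all 3 neutrophil genes had both IEL arrays below both SPL arrays. In IEL replicate 1, 1 of 3 neutrophil and 2 of 4 erythroid genes were still well above background. The sort required CD45, CD3, TCRβ and both CD8 chains on the surface, and whether any of these other cells passed it was not tested. Epithelial, B and myeloid cells can also express Il15, Il15ra, Il4ra, Il21r or Il7r, and their part in these differences was not tested. In such bulk samples, fewer cells of a type and less RNA per cell cannot be told apart.

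**Figure D4:**
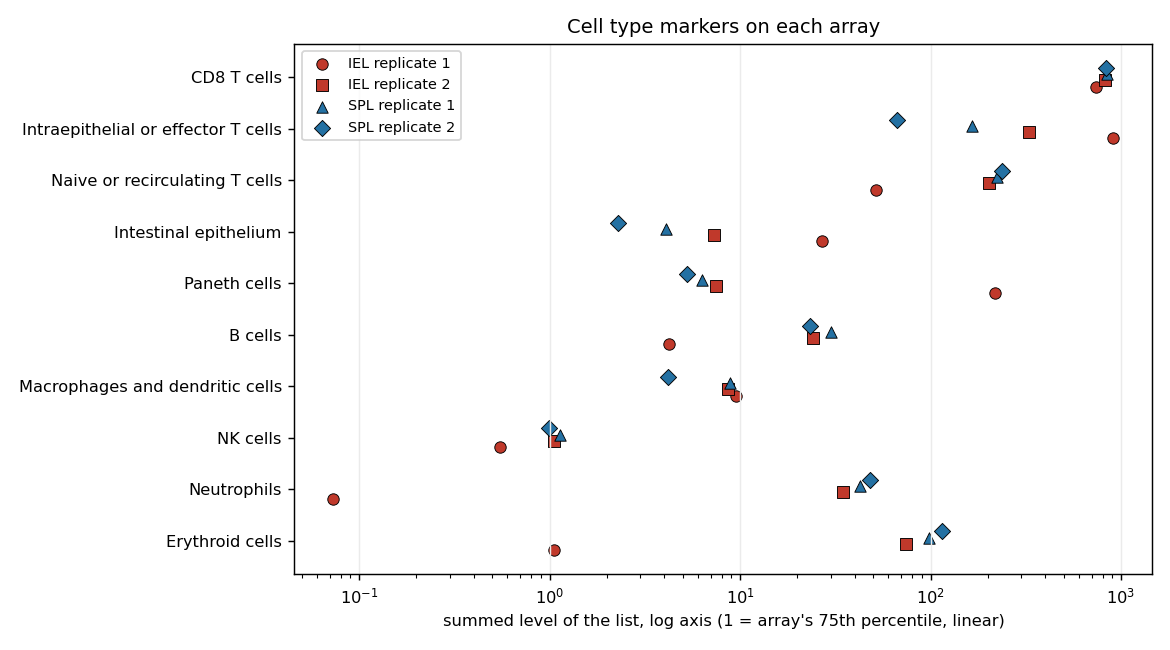
Summed level of each marker list on each array, on a log axis where 1 is the array's 75th percentile on the linear scale. IEL replicate 1 (red circles) lies apart from the other arrays for Paneth cells (218), neutrophils (0.0733) and erythroid cells (1.06), while IEL replicate 2 (red squares) lies near the SPL arrays (blue) there.

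The other genes of the pathway were taken from 4 lists and read through the brightest tested probe of each, and none passed the adjusted threshold in limma. Of the 5 other ligands of the family, Il2 alone was tested, at -4.32 and -2.95 in IELs and -4.03 and -4.31 in SPLs, with overlapping groups and a difference of 0.53 (interval -0.88 to 1.94), IEL replicate 2 alone being high. Il4 and Il7 did not meet the background filter, and Il9 and Il21 were well above background on no array. Of the 2 partner chains, Crlf2, which pairs with the IL-7 receptor α chain for thymic stromal lymphopoietin, differed by 0.48 (interval -0.39 to 1.35), with the IEL arrays above and slide values of 0.76 and 0.20. Il13ra1, which pairs with Il4ra for IL-13, differed by -0.55 (interval -1.24 to 0.14), with the IEL arrays below and slide values of -0.31 and -0.79.

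The 10 signal transducers split into 6 higher and 4 lower, with a median difference of 0.02. JAK1, the kinase of the partner chains, read 5.67 and 6.19 in IELs and 6.31 and 6.36 in SPLs, a difference of -0.40 (interval -1.17 to 0.37, slides -0.69 and -0.12). Its IEL arrays lay below the SPL arrays, in the direction of Il2rg and opposite to Jak3. Stat5a read 1.46, 0.58, 0.58 and 1.43 on IEL replicates 1 and 2 and SPL replicates 1 and 2, and differed by 0.02 (interval -1.25 to 1.28). Its values went with the slide, high on both arrays of slide 1 and low on both of slide 2. Stat5b read 4.78 and 3.66 against 3.60 and 3.63, which is 0.61 (interval -0.58 to 1.79, slides 1.15 and 0.06), with IEL replicate 1 alone clearly higher. Pik3r1, a regulatory subunit of PI3 kinase, stood at the top of the list with 1.71 (interval 0.23 to 3.18, slides 2.73 and 0.69, limma adjusted p = 0.634) and Pik3cd, a catalytic subunit, at the bottom with -0.66 (interval -1.85 to 0.53, slides -0.36 and -0.96).

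The 10 response genes of STAT5 also split into 6 higher and 4 lower, with a median difference of 0.14. Cish, a feedback inhibitor that STAT5 induces, led them at 3.70 and 2.47 in IELs and 1.42 and 0.84 in SPLs. Its groups were well apart, and the difference was 1.96 (SE 0.512, limma adjusted p = 0.634), with an interval of 0.58 to 3.33 and slide values of 2.86 and 1.05. Myc, a driver of growth that cytokines of this family induce, was lowest in the list, at 0.85 and 2.88 in IELs against 3.17 and 3.03 in SPLs. Its difference of -1.24 (interval -3.18 to 0.71) went with a low IEL replicate 1, with -2.18 on slide 1 and -0.29 on slide 2.

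Without IEL replicate 2, 6 of these 23 pathway genes passed the limma threshold, where 19.5% of all probes passed. Cish rose by 2.57 (adjusted p = 0.0133), Pik3r1 by 2.33 (adjusted p = 0.0233) and Stat5b by 1.16 (adjusted p = 0.0347), and Myc fell by 2.25 (adjusted p = 0.00943), all in limma. Stat3, which IL-21 activates, rose by 2.09 (limma adjusted p = 0.0121) and the feedback inhibitor Socs2 by 2.40 (limma adjusted p = 0.0101).

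**Figure D5:**
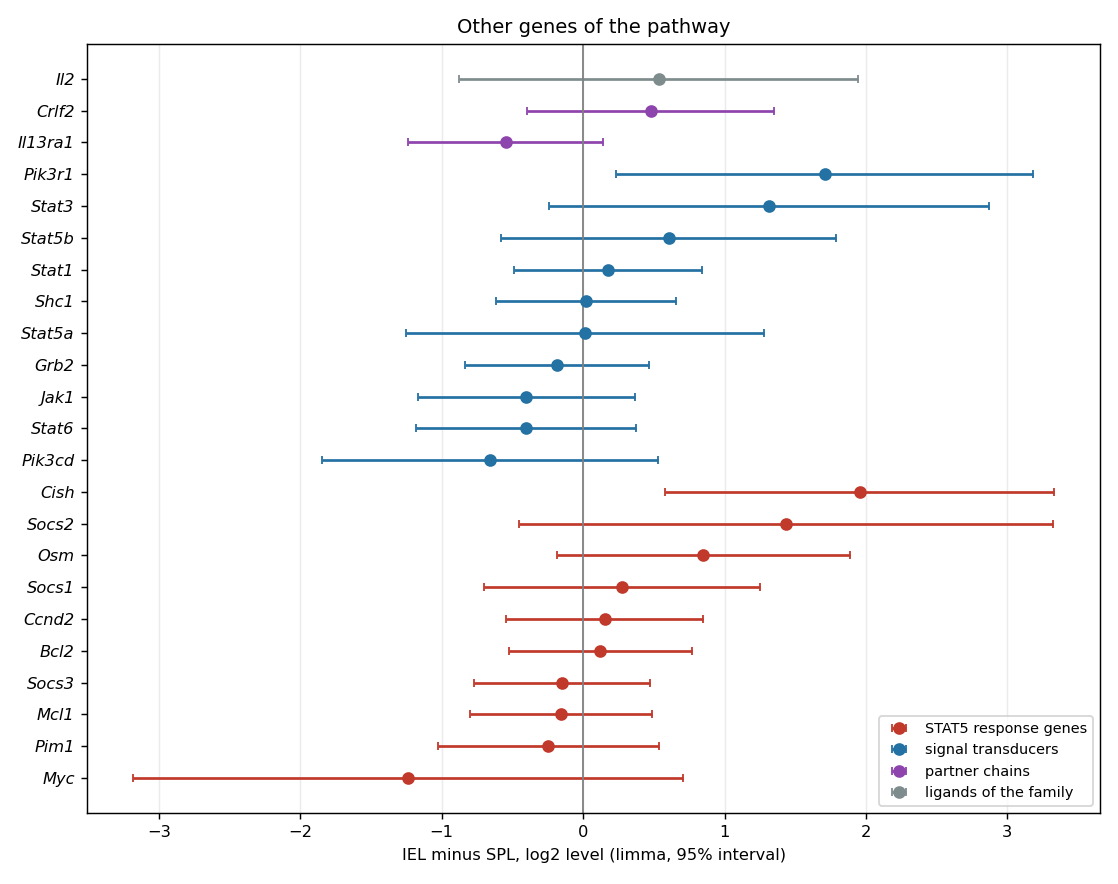
Difference in log2 level, IELs minus SPLs, for the 23 tested genes of the pathway lists, with limma 95% intervals, coloured by list and ordered by size within each. Cish at 1.96 and Pik3r1 at 1.71 are the 2 whose intervals leave out 0 before adjustment, and Myc at -1.24 is the lowest.

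For 3 members, the genes with the most similar profile were sought by the distance between levels centred over the 4 arrays, where 0 means the same profile. Il2rb was nearest to Rbbp5 (0.024), Ergic1 (0.032) and Ctsc (0.038). Il7r A_51_P196695 was near to Mplkip (0.014) and Stxbp3a (0.014), which share its low value in IEL replicate 1. Il15 A_52_P383066 was nearest to Psmd3 (0.016), H2-T22 (0.018) and Mnda (0.020), whose 4 values hardly differ. With 4 arrays such distances describe only these samples.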

How the data were processed

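Per the labels, RNA of sorted CD8αβ+ IELs and SPLs was hybridised to 4 Agilent arrays. The deposited scanner files hold 1 intensity for each of 45018 spots per array, from which Agilent Feature Extraction (10.7.3.1 per the file headers, 10.7.1.1 in the submitters' processing notes) had subtracted a background fitted within the array, without bringing the arrays to a common scale. A second deposited file holds the authors' own log2 values of the same arrays, which served as an alternative. The study's methods name another array platform, but the deposited files are Agilent output.

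Control and outlier-marked spots were left out, the log2 processed intensity was scaled to each array's 75th percentile over non-control spots, and spots of a probe were averaged. The fit took probes flagged as well above background in both samples of either group, and used R 4.3.3 and its package limma 3.58.1, IEL against SPL, two-sided, with Benjamini-Hochberg adjustment at 0.05 over all tested probes. The fit was also run on simulated data with independent noise, which does not copy the likeness of IEL replicate 2 to the SPL arrays. Within-slide differences have no test. Python 3.11.15 with pandas 2.3.3, numpy 2.4.6 and matplotlib 3.10.9 made the summaries and plots. Alternatives covered scaling, background correction with an offset of 50, the filter, the test, blocks, the deposited log2 values and leaving out each sample. No scaling between arrays was added after the values were seen.

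Every probe of a member was reported. A pathway gene was named with values if it passed the threshold, was highest or lowest of its list, or pairs directly with a member (Jak1, Stat5a, Stat5b, Il13ra1, Crlf2, Cish). Stat3 and Socs2 passed only without IEL replicate 2 and were named after their values were seen. Likeness was computed for Il2rb, Il7r and Il15, and 1 gene it named is not reported here. Members and lists were chosen with earlier results of these data known. Symbols and mm9 positions come from the array annotation, and 15 of the 19 member probes matched a RefSeq transcript of GRCm38.p6. Same-numbered replicates did not deviate together (r = -0.025), so the numbers were not taken as pairs. The number of arrays limits the precision.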

Additional observations from a re-analysis of the deposited data

How the results depend on the processing

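No member, pathway gene or other probe passed the adjusted threshold in any alternative except leaving out IEL replicate 2, where 3 of the 9 member genes by their brightest probe, 6 pathway genes and 5454 of all probes passed. Over the 4 fits that leave out 1 sample, the counts ran from 0 to 3, from 0 to 6 and from 0 to 5454. With the replicate number as a block, which the samples share only as a number, 0 members, 0 pathway genes and 0 of all probes passed, and that block changed no call. For the 15 member probes, 294 of 308 alternative values kept direction and side of the threshold, 5 passed it (all without IEL replicate 2) and 9 turned direction. For the 12 named pathway genes, these were 229 of 251, 6 and 16. Normexp moved the median of all probes by -0.38 and turned Il2ra (-0.75), Il7r A_52_P555957 (0.0074), both Il15ra probes (-0.019 and -0.23), Il2 (-0.69), Jak1 (0.080), Stat5a (-0.019) and Socs2 (-0.25). Normexp without spots far below the local background moved that median by 0.15 and turned the Il15 probes (0.094 and 0.21), Il13ra1 (0.30) and Stat5a (-0.12). No scaling moved it by -0.55 and turned Jak3 A_51_P288406 (-0.10), Il2 (-0.015), Crlf2 (-0.069) and Stat5a (-0.53). Stat5a was also -0.0046 after quantile normalization, -0.040 after median scaling and -0.014 in the deposited log2 values. With each sample left out in turn, Il7r A_52_P555957 ran from -0.36 to 0.081 (turned without SPL replicate 1), Il7r A_52_P32750 from -1.66 to 0.016 (without IEL replicate 1), Stat5a from -0.42 to 0.45 (without IEL replicate 1, and -0.41 without SPL replicate 1) and Il2 from -0.15 (without IEL replicate 2) to 1.22. Within slide 1, Il2 was -0.012. Averaging both Il15 probes gave -0.89 for the gene. The causes were not tested. Dim probes such as Il2ra and Il15 A_52_P15461 limit what the background correction leaves. IEL replicate 2 correlated at r = 0.973 with SPL replicate 2, on the other slide, and at r = 0.946 with IEL replicate 1. With 2 arrays per group, the parts of IEL replicate 2 (splenic cells in it, or a labelling error), SPL replicate 1 and the slide were not tested.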
